A study of Homo sapiens and Homo sapiens
Mus with 12 samples.

Results

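The 46 genes described here carry out DNA replication, mitosis and the control of entry into the cell cycle. The set holds 22 S phase genes, which license, fire and copy replication origins and supply nucleotides, and 21 mitosis genes, which condense, attach and separate chromosomes. The remaining 3 genes are regulators of G1, namely CCND1 (cyclin D1) and the kinase inhibitors CDKN1A (p21) and CDKN1B (p27). The members were chosen by name for their known roles, at a point when earlier results of these data were known. All 46 were listed both among the 21466 genes with values in the table of cultured cells and among the 26813 human genes in the table of xenograft tumors.

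A dividing cell makes most replication proteins in late G1 and S phase, when E2F transcription factors are released from the retinoblastoma protein. Genes of G2 and mitosis are switched on later, largely by the MuvB complex with B-MYB and FOXM1, which reads a DNA element called the CHR, and by NF-Y, which binds CCAAT boxes. MKI67, the antigen recognized by Ki-67 stains, and PCNA, the sliding clamp of the replication fork, are widely used in tumor pathology to mark cycling cells.

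RNA from UM-UC-3, a human cell line from an advanced bladder cancer, was sequenced after knockdown (KD) of CDH11, a cadherin that holds neighboring cells together. All cells carried a lentiviral GIPZ vector with GFP and were sorted as GFP-positive, including the controls. The vector held a nonsilencing hairpin in shCtrl cells and 1 of 2 hairpins against CDH11 in sh#1 and sh#2 cells. Each group gave 3 libraries of cells precultured for 24 hours and 5 libraries of tumors, sampled 4 weeks after subcutaneous injection of the cells in Matrigel. The hosts were BALB/cAJcl-nu/nu nude mice, 5 weeks old at injection, which lack a thymus and so nearly all T cells but keep other leukocytes. The sources do not say that the libraries of a group came from separate cultures, so the p-values for cultured cells measure only the spread between these libraries, which may be technical.

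The cultured libraries held 2273182 to 2777019 counts, and the tumors 414849 to 1248977 counts on human genes. Mouse genes took 10.4 to 30.0% of all counts in a tumor, with the highest share in sh#1 tumor 1, which also had the lowest human total. The targeted gene was near the detection limit, since CDH11 had 2 to 4 counts in cultured shCtrl libraries, 0 to 1 with sh#1 and 0 to 2 with sh#2. In tumors it had 5 to 32 counts with shCtrl, 1 to 9 with sh#1 and 2 to 14 with sh#2, so most of these ranges overlapped. Markers of urothelium, including GATA3, PPARG, KRT5 and UPK2, never exceeded 9 counts, while VIM, a filament protein of mesenchymal cells, had 1444 to 8893 counts. Other mesenchymal markers were lower. In cultured libraries ZEB1 had 199 to 268 counts, CDH2 57 to 106 and FN1 6 to 32. In tumors ZEB1 had 65 to 190 counts, CDH2 0 to 25 and FN1 3 to 67. The tumor barcodes placed shCtrl, sh#1 and sh#2 tumors in separate library mixes, so that mix and group cannot be told apart. In such bulk libraries fewer cycling cells and less RNA per cell cannot be told apart either.

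The S phase and mitosis genes differed in letters of their promoters that did not enter their choice. Promoters were 300 bases of RefSeq sequence on GRCh38.p14, from 250 bases before to 50 after a start site, and 37 of the 46 members matched, with 48 promoters. MCM4, MCM5, CCNE2, AURKA, TTK, UBE2C, TPX2, BIRC5 and CCND1 did not match. E2F letters (TTTCGCGC, TTTGGCGC, TTTCCCGC or TTTGCCGC, on either strand) stood in 11 of 19 S phase genes (57.9%), 1 of 16 mitosis genes (6.25%) and 3.99% of all 27305 genes. CHR letters (TTTGAA or TTCGAA, on either strand) stood in 2 of 19 S phase genes (10.5%), 11 of 16 mitosis genes (68.8%) and 19.5% of all genes. CCAAT on either strand stood in 11 of 19 S phase genes (57.9%), 14 of 16 mitosis genes (87.5%) and 39.7% of all genes. A promoter with both CHR letters and CCAAT was found for 10 of 16 mitosis genes (62.5%) and 7.85% of all genes. These matches are descriptions of sequence and not measurements of binding.

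Promoter stretches of 5 members are printed 5′ to 3′ on the gene's own strand, with CHR, CCAAT (or its reverse, ATTGG) and E2F letters in capitals. CCNB2, MKI67 and CENPF are mitosis genes and PCNA and CDT1 are S phase genes, and the values of all 5 are given further on. All 5 stretches hold such letters and do not stand for their whole class. Like stretches of 1 promoter of CDK1 and 1 of CDC45 held none of these letters, and that of another PCNA promoter held no E2F letters. Over the full 300 bases searched, each CDK1 promoter held E2F, CHR and CCAAT letters, and other CDC45 promoters held CCAAT.
CCNB2, chr15:59105026-59105125, plus strand: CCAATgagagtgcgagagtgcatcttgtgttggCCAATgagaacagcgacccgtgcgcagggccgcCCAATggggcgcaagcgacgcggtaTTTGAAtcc
MKI67, chr10:128126424-128126543, minus strand: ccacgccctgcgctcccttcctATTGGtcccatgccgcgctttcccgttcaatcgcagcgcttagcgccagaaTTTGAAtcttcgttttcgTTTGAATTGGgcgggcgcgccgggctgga
CENPF, chr1:214603075-214603184, plus strand: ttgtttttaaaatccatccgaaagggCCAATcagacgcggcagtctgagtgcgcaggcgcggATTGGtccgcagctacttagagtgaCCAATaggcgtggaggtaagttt
PCNA, chr20:5126627-5126742, minus strand: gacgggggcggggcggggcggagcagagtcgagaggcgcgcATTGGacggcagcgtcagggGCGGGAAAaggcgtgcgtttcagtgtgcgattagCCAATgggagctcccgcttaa
CDT1, chr16:88803669-88803788, plus strand: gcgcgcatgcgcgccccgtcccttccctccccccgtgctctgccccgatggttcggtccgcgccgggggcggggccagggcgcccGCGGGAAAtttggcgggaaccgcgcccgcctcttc

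The CCNB2 stretch held 3 CCAAT boxes upstream of 1 CHR. In MKI67 the CHR letters nearest the start site share bases with an ATTGG. CENPF had 3 CCAAT boxes and no CHR letters in this stretch, and PCNA had E2F letters between 2 CCAAT boxes.

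The comparison of KD with shCtrl in cultured cells asked whether knockdown of CDH11 changed the replication and mitosis genes of cells growing in a dish. The members changed one by one and in both directions, and neither class moved as a whole. Genes that supply nucleotides rose, the clamp PCNA and the flap nuclease FEN1 fell, and the kinase inhibitors CDKN1A and CDKN1B rose, with both hairpins. Of the 46 members, all tested, 9 were higher and 3 lower at q under 0.05, or 26.1%. Of all genes tested 17.4% passed, 9.12% higher and 8.32% lower. The 3 lower members became 5 with upper quartile scaling and 9 when KD was averaged in the fit of 3 groups. Over all 9859 genes tested, lower calls went from 820 to 940 and 1661 in the same order. All fold changes are log2 and come from edgeR, and levels are normalized CPM, which scale counts to library size.

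Per library, the mean log2 CPM of the 22 S phase members lay between 5.83 and 5.95 over the 9 cultured libraries. That of the 21 mitosis members lay between 6.81 and 6.99. The median log2 fold change in KD was -0.01 over S phase members and 0.08 over mitosis members, beside 0.00 over all genes tested. Among S phase members 5 rose and 2 fell, and among mitosis members 2 rose and 1 fell. MKI67 measured 332, 250.1 and 277 CPM with shCtrl, 271, 289.9 and 311 with sh#1, and 355, 325 and 308 with sh#2. The groups overlapped, and its log2 fold change in KD was 0.11 (SE 0.10, q = 0.486).

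**Figure D1:**
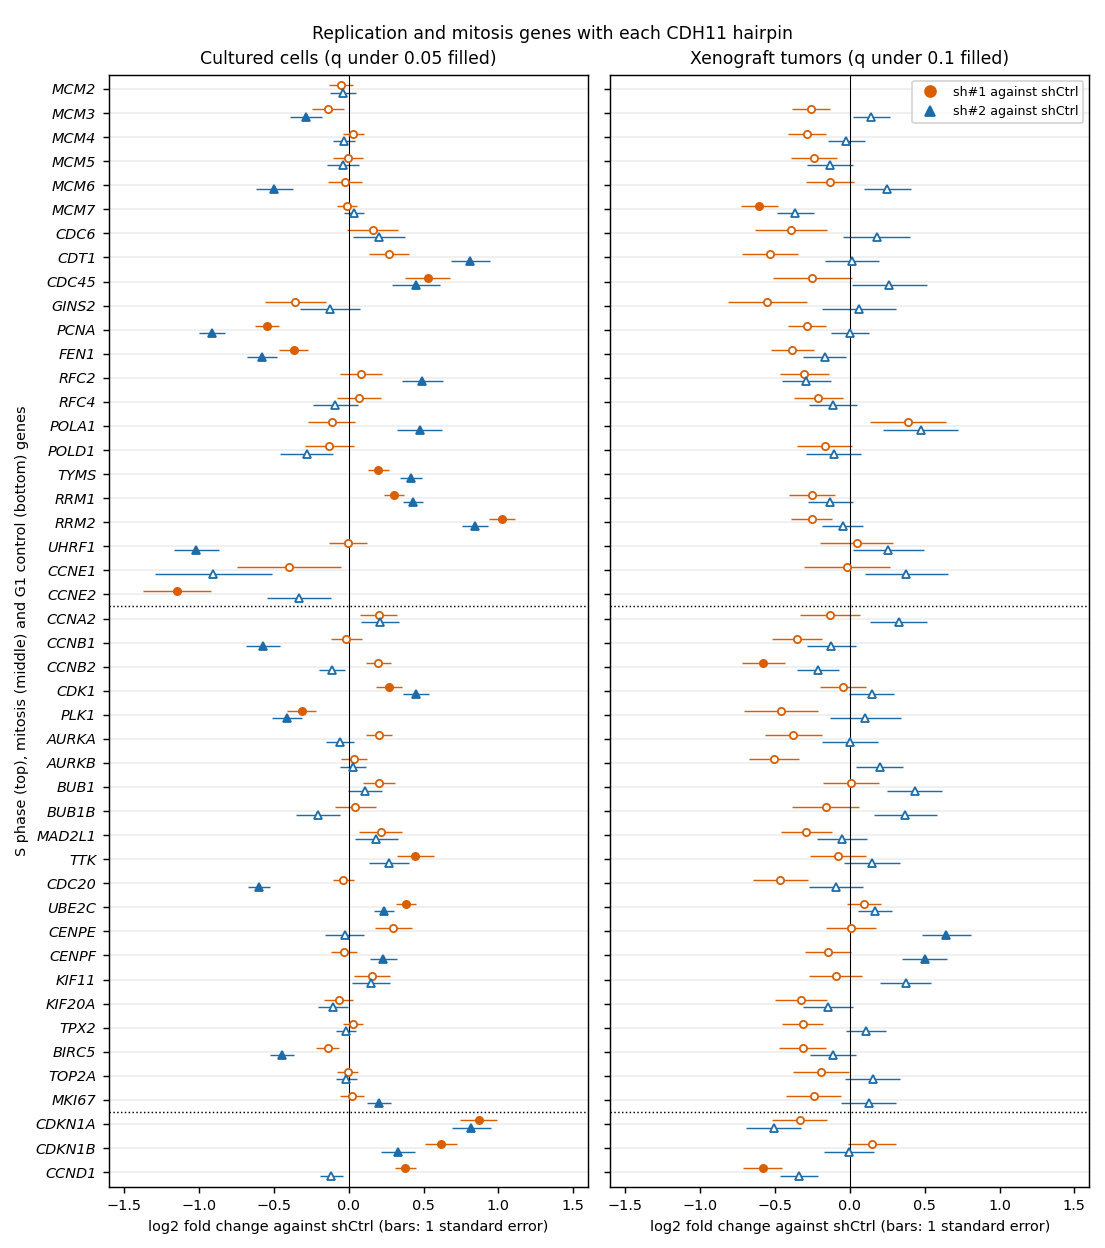
Log2 fold change of each member with sh#1 (circles) and sh#2 (triangles) against shCtrl, on the horizontal axis, in cultured cells on the left and xenograft tumors on the right, with bars of 1 SE and filled symbols past the threshold of that system. In cultured cells RRM2 and CDKN1A lie to the right and PCNA and FEN1 to the left with both hairpins, while the filled tumor symbols are MCM7, CCNB2 and CCND1 with sh#1 and CENPE and CENPF with sh#2.

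All 3 members that supply nucleotides rose. RRM2, the regulated subunit of ribonucleotide reductase, measured 91.3, 121 and 111 CPM with shCtrl, 233, 216 and 210.0 with sh#1, and 212, 183 and 186 with sh#2. Every KD library lay above every shCtrl library, and the log2 fold change of 0.94 (SE 0.11, q = 1.36e-05) was the largest of any member. RRM1, the partner subunit, measured 267 ± 5.98 CPM with shCtrl (SD, n = 3) and 344 ± 22.8 in KD (SD, n = 6), a log2 fold change of 0.37 (SE 0.08, q = 0.00575). TYMS, which makes thymidylate, measured 186 ± 10.5 against 231 ± 21.0 CPM, a log2 fold change of 0.31 (SE 0.09, q = 0.0285). The ranges of RRM1 and TYMS did not overlap between KD and shCtrl. TYMS lies across ENOSF1 on the opposite strand, and whether the counting used strand is not given in the sources used here.

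Of 6 members that copy DNA at the fork, 2 fell in KD, PCNA and FEN1, and 0 rose. PCNA measured 199, 196 and 200.1 CPM with shCtrl, 140.2, 145 and 124 with sh#1, and 119.9, 102 and 94.5 with sh#2. Neither hairpin overlapped shCtrl, the log2 fold change was -0.71 (SE 0.12, q = 0.000474), and sh#2 lay below sh#1 in every library. FEN1, which trims the flaps of Okazaki fragments, measured 108 ± 5.34 CPM with shCtrl and 77.9 ± 7.56 in KD, a log2 fold change of -0.47 (SE 0.10, q = 0.0047). FEN1 overlaps FADS2 on the same strand, so the counting could have split reads between them.

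Of 8 members that license origins 1 rose, CDT1, and of 2 that fire them 1 rose, CDC45, and 0 of either fell. The licensing members had a median log2 fold change of -0.01, with 4 values above and 4 below 0. CDC45, a subunit of the active helicase, measured 22.8, 26.7 and 22.9 CPM with shCtrl, 34.0, 35.6 and 34.5 with sh#1, and 32.7, 35.8 and 30.2 with sh#2. CDT1, which loads the MCM helicase on origins, measured 39.0, 40.2 and 37.3 CPM with shCtrl, 46.3, 53.03 and 41.9 with sh#1, and 65.8, 60.7 and 78.4 with sh#2. No KD library of either gene reached down to shCtrl, and the log2 fold changes were 0.49 (SE 0.13, q = 0.0176) for CDC45 and 0.56 (SE 0.17, q = 0.0313) for CDT1. With sh#1 alone 0 of the 8 licensing members passed, and CDT1 was past the threshold lower with sh#1 than with sh#2. MCM7, a subunit of the MCM ring, measured 269.9 ± 10.5 CPM with shCtrl and 272 ± 7.53 in KD, a log2 fold change of 0.01 (SE 0.08, q = 0.926).

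Of the 21 mitosis members 14.3% passed the test, a share near that of all genes tested. CDK1, the kinase that starts mitosis, measured 111, 103 and 102 CPM with shCtrl, 128, 119 and 133 with sh#1, and 153, 135 and 143 with sh#2, a log2 fold change of 0.36 (SE 0.10, q = 0.017). UBE2C, the ubiquitin carrier of the anaphase promoting complex, measured 340.5, 359 and 328 CPM with shCtrl, 489, 436 and 417 with sh#1, and 399, 383 and 426 with sh#2, a log2 fold change of 0.31 (SE 0.09, q = 0.0216). In both genes all 6 KD libraries lay above all 3 shCtrl libraries. PLK1, a kinase of spindle assembly and mitotic exit, moved the other way and measured 98.0, 103 and 112 CPM with shCtrl, 78.3, 94.8 and 79.3 with sh#1, and 86.8, 77.9 and 70.1 with sh#2. Its log2 fold change was -0.36 (SE 0.11, q = 0.0253), without overlap between KD and shCtrl.

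Both kinase inhibitors rose. CDKN1A measured 39.8, 48.4 and 45.7 CPM with shCtrl, 84.9, 86.5 and 73.6 with sh#1, and 60.7, 90.8 and 85.2 with sh#2, a log2 fold change of 0.85 (SE 0.13, q = 0.000367). CDKN1B measured 66.1, 57.8 and 56.4 CPM with shCtrl, 101, 89.5 and 86.3 with sh#1, and 67.7, 83.1 and 75.5 with sh#2, a log2 fold change of 0.48 (SE 0.13, q = 0.0134). In neither gene did a KD library overlap shCtrl, although the lowest sh#2 library of CDKN1B lay just above the highest control.

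With each shCtrl library left out in turn (1, 2 and 3), the number of higher members fell from 9 to 5, 4 and 3. Over all genes tested, higher calls fell from 899 to 511, 514 and 458. RRM2, RRM1, PCNA, FEN1 and CDKN1A passed under all 15 alternatives. Without shCtrl 1 the calls of CDC45, CDT1, TYMS, UBE2C and PLK1 were lost, without shCtrl 2 those of CDK1, CDKN1B, CDT1, TYMS, UBE2C and PLK1, and without shCtrl 3 all 7 of these. CDT1 was also lost without any 1 of the sh#2 libraries, and TYMS without sh#2 1 or 2.

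The 2 hairpins were also compared with the same shCtrl libraries and with each other. With sh#1, 10 members were higher and 4 lower (30.4%, beside 22.4% of all genes tested, 11.8% higher and 10.6% lower). With sh#2, 13 were higher and 9 lower (47.8%, beside 38.3%, 19.5% higher and 18.8% lower). Directly compared with sh#2, sh#1 had 10 members at a higher and 6 at a lower level (34.8%, beside 24.7%, 11.2% higher and 13.5% lower). With DESeq2 the 10 higher with sh#1 became 6, the 13 higher with sh#2 became 8, and the 6 lower in the direct comparison became 2. Over all genes tested, the same calls went from 1162 to 684, from 1920 to 1359 and from 1331 to 793.

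UHRF1, which keeps DNA methylation in place after replication, differed most between the hairpins. It measured 40.5, 47.2 and 43.8 CPM with shCtrl, 45.1, 42.2 and 43.7 with sh#1, and 22.4, 19.6 and 22.9 with sh#2. The sh#2 libraries stood apart from all others, with a log2 fold change of -1.02 against shCtrl (SE 0.15, q = 2.23e-07), and sh#1 exceeded sh#2 by 1.01 (SE 0.15, q = 6.15e-07). CDC20, which activates the anaphase promoting complex, measured 311 ± 17.4 CPM with shCtrl, 304 ± 2.63 with sh#1 and 205 ± 22.6 with sh#2 (SD, n = 3), with a log2 fold change of -0.60 for sh#2 (SE 0.07, q = 1.09e-09). Members of the same kind were CCNB1, the main cyclin partner of CDK1, MCM6 of the MCM ring and BIRC5 (survivin). Their log2 fold changes with sh#2 were -0.57, -0.50 and -0.44, and all 3 were higher in sh#1 than in sh#2. MCM3 of the same ring also fell with sh#2 (-0.28), while RFC2 of the clamp loader and POLA1, a DNA polymerase subunit, rose (0.49 and 0.47).

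CCNE2, a cyclin E, went the other way, at 18.5, 20.1 and 20.2 CPM with shCtrl, 11.9, 5.65 and 8.81 with sh#1, and 15.9, 17.2 and 13.6 with sh#2. Its log2 fold change was -1.15 with sh#1 (SE 0.23, q = 0.000109) and its log2 difference between sh#1 and sh#2 was -0.82 (SE 0.25, q = 0.0102). CCND1 measured 249, 207 and 236 CPM with shCtrl, 305, 298 and 297 with sh#1, and 229, 210.2 and 199 with sh#2. It rose with sh#1 by 0.38 (SE 0.07, q = 3.94e-05), while its log2 fold change with sh#2 was -0.12 (SE 0.07, q = 0.227), and the direct difference was 0.49 (SE 0.07, q = 3.75e-07). TTK, a kinase of the spindle checkpoint, rose with sh#1 (0.45, SE 0.13, q = 0.00645) and measured 0.27 with sh#2 (SE 0.13, q = 0.101), and the difference between the hairpins was 0.17 (SE 0.13, q = 0.335). MKI67 passed with sh#2 (0.20, SE 0.08, q = 0.0468) but in only 7 of 15 alternatives. Leaving out shCtrl 3 lowered the higher members with sh#2 from 13 to 8, and leaving out sh#1 2 or sh#2 2 lowered those below sh#2 from 6 to 2. Over all genes tested, the first went from 1920 to 1672, and the others from 1331 to 1155 and 1062.

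Among other genes of G1 and S entry, replication and mitosis, CDC25A and SKP2 fell most in cultured KD. Of 23 further genes of G1 and S entry tested, 2 rose and 6 fell, including CDC25A, the phosphatase that activates CDK2 (-1.57), and SKP2, which targets CDKN1B for destruction (-1.22), while RB1 rose (0.69). Of 38 further replication genes 2 rose and 2 fell, from GINS1 (-0.84) to ORC1 (0.77). Of 53 further mitosis genes 6 rose and 9 fell, from SPC25 of the kinetochore (-0.91) to SGO1, which guards centromeric cohesion (0.79). The shares that passed were 34.8%, 10.5% and 28.3%, beside 17.4% of all genes tested, and the list medians were -0.20, -0.09 and -0.02. In a separate list of p53 target genes, 3 of 17 tested rose and 4 fell (41.2%), from ZMAT3 (-1.24) to SESN2 (2.02).

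**Figure D2:**
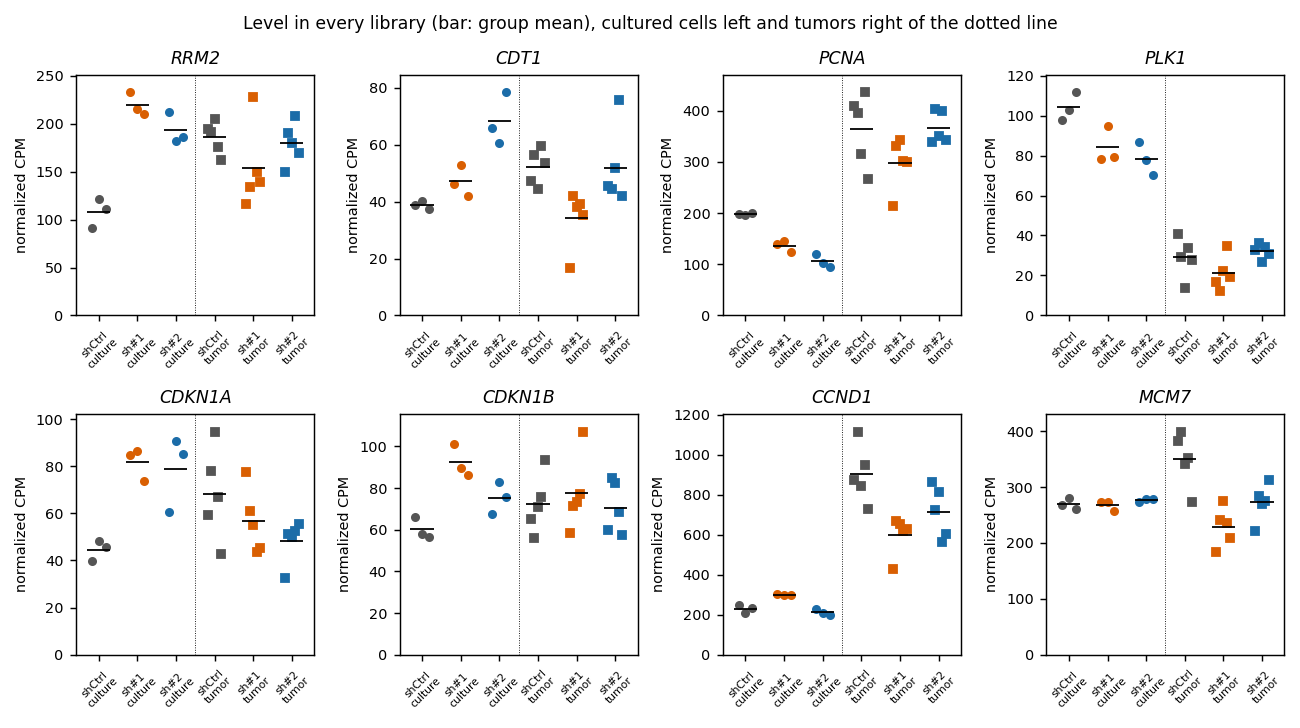
Normalized CPM of 8 members in each of the 24 libraries, 1 panel per gene, with cultured cells to the left and tumors to the right of the dotted line, symbols for libraries and bars for group means. RRM2 and CDKN1A separate KD from shCtrl in cultured cells and overlap in tumors, and 4 of the 5 shCtrl tumors lie above every KD tumor for MCM7.

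In xenograft tumors the comparison asked whether CDH11 KD changed the same genes in cells growing in a host. Here 2 members, MCM7 and CCND1, fell in KD and with sh#1 alone, but neither passed with sh#2 alone. The cultured changes in RRM2, PCNA and CDKN1A did not pass the test in tumors. MCM2, TYMS and CCNE2 had 0 to 9 counts per tumor and were removed with other low genes, which left 43 of 46 members. In cultured libraries MCM2 had 310 to 410 counts, TYMS 431 to 624 and CCNE2 13 to 53. At q under 0.1, 0 members were higher and 2 lower (4.65%, beside 1.51% of all genes tested, 0.697% higher and 0.817% lower). At an unadjusted p under 0.05 the counts were 0 higher and 6 lower of 43, beside 1164 of all 9184 genes tested in either direction. DESeq2 also found 0 higher.

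MCM7 measured 383, 399, 342, 352 and 273 CPM in shCtrl tumors, 183, 241, 275, 236 and 208 in sh#1 tumors, and 222, 285, 270.1, 275 and 313 in sh#2 tumors. Apart from shCtrl tumor 5 every control lay above every KD tumor, and the log2 fold change was -0.48 (SE 0.11, q = 0.0262). With sh#1 alone it was -0.60 (SE 0.12, q = 0.00425), and with sh#2 alone -0.36 (SE 0.12, q = 0.131). MCM7 overlaps AP4M1 on the opposite strand.

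CCND1, the cyclin that drives the passage through G1, measured 871, 1115, 844, 947 and 731 CPM in shCtrl tumors. It measured 427, 669, 655, 617 and 627 CPM in sh#1 tumors and 864, 724, 814, 563 and 603 in sh#2 tumors. All sh#1 tumors lay below all controls, sh#2 tumors overlapped them, and the log2 fold change was -0.45 in KD (SE 0.12, q = 0.0631) and -0.58 with sh#1 (SE 0.13, q = 0.0148). CCND1 overlaps LTO1 on the opposite strand.

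Both calls held with sh#1 under all 22 alternatives. In KD they were lost without shCtrl tumor 1 or 2, leaving 0 lower members, and when mouse counts over human counts entered as a covariate, while CCND1 was also lost without shCtrl tumor 4, leaving 1. Without shCtrl tumor 5, which was low in both genes, 4 members were lower. Over all genes tested, lower calls in KD went from 75 to 27 and 40 without shCtrl tumors 1 and 2. They went to 43 without shCtrl tumor 4, to 39 with the covariate and to 202 without shCtrl tumor 5.

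RRM2 measured 194, 191, 205, 176 and 162 CPM in shCtrl tumors, 117, 135, 228, 150.1 and 139 in sh#1 tumors, and 149, 191, 180.1, 208 and 170.0 in sh#2 tumors. The groups overlapped, with a log2 fold change of -0.15 in KD (SE 0.12, q = 0.657). PCNA measured 410.1, 395, 316, 436 and 267 CPM in shCtrl tumors, 214, 331, 343, 301 and 299 in sh#1 tumors, and 339.8, 403, 351, 399 and 342 in sh#2 tumors. These ranges overlapped too, with a log2 fold change of -0.13 (SE 0.12, q = 0.694). CDKN1A measured 59.4, 77.9, 94.6, 66.7 and 42.9 CPM in shCtrl tumors, 77.7, 61.0, 55.2, 43.5 and 45.5 in sh#1 tumors, and 32.7, 51.0, 49.8, 52.3 and 55.4 in sh#2 tumors, a log2 fold change of -0.42 (SE 0.16, q = 0.25). CDKN1B measured 72.2 ± 13.9 CPM in shCtrl tumors (SD, n = 5) and 73.9 ± 15.1 in KD tumors (SD, n = 10), a log2 fold change of 0.07 (SE 0.14, q = 0.88). MKI67 measured 369, 426, 249, 292 and 432 CPM in shCtrl tumors, 247, 280.3, 373, 341 and 240.4 in sh#1 tumors, and 328, 551, 385, 379.9 and 275 in sh#2 tumors. Its groups overlapped widely, with a log2 fold change of -0.05 in KD (SE 0.17, q = 0.947).

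Mitosis members passed with single hairpins and in opposite directions. CCNB2, a B-type cyclin, measured 124, 125, 93.5, 126 and 101 CPM in shCtrl tumors, 63.8, 80.3, 88.0, 80.5 and 66.7 in sh#1 tumors, and 102, 92.7, 105, 118 and 70.7 in sh#2 tumors. In sh#1 tumors it fell by 0.58 (SE 0.14, q = 0.0349), below every control, a call lost without sh#1 tumor 5 or without shCtrl tumor 1 or 2. CENPE, a kinesin that carries chromosomes to the spindle equator, measured 132, 123, 107, 89.8 and 110.3 CPM in shCtrl tumors, 94.3, 88.2, 174, 99.0 and 104 in sh#1 tumors, and 169, 228, 162, 188 and 129.9 in sh#2 tumors. It rose in sh#2 tumors by 0.64 (SE 0.16, q = 0.0381), with only the lowest sh#2 tumor inside the control range. CENPF, a large kinetochore protein, measured 327, 349, 230.3, 248 and 399.9 CPM in shCtrl tumors, 228, 259, 344, 319 and 242 in sh#1 tumors, and 462, 529, 444, 446 and 304 in sh#2 tumors. It rose in sh#2 tumors by 0.50 (SE 0.15, q = 0.0976), which held in 6 of 22 alternatives.

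Against the same shCtrl tumors, sh#1 had 0 members higher and 3 lower (6.98%, beside 1.48% of all genes tested, 0.773% higher and 0.708% lower). With sh#2, 2 were higher and 0 lower (4.65%, beside 2.68%, 1.36% higher and 1.32% lower). At an unadjusted p under 0.05, 0 members were higher and 13 lower with sh#1, and 4 were higher and 3 lower with sh#2. Of all 9184 genes tested, 1029 with sh#1 and 1259 with sh#2 passed in either direction. DESeq2 also found 0 higher with sh#1 and 0 lower with sh#2. Without shCtrl tumor 5, 5 members were lower with sh#1 and 3 with sh#2, while the higher members with sh#2 became 0 without sh#2 tumor 2 or shCtrl tumor 4. Over all genes tested, lower calls without shCtrl tumor 5 went from 65 to 148 with sh#1 and from 121 to 289 with sh#2. Higher calls with sh#2 went from 125 to 61 without sh#2 tumor 2 and to 65 without shCtrl tumor 4.

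Set against each other, sh#1 and sh#2 tumors differed in one direction across both classes. All 40 S phase and mitosis members tested had a lower fitted level in sh#1 than in sh#2 tumors, where 50.8% of all genes tested had a value below 0. The log2 differences ran from -0.71 to -0.01, with a median of -0.24 over 19 S phase members and -0.37 over 21 mitosis members, beside -0.01 over all genes tested. The members share libraries and are not independent of each other, so that this count carries no p.

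Of these, 3 mitosis members were lower past the threshold and 0 members higher (6.98% of 43, beside 1.19% of all genes tested, 0.642% higher and 0.544% lower). At an unadjusted p under 0.05 the counts were 17 lower and 0 higher, beside 913 of all 9184 genes tested in either direction. DESeq2 also found 0 higher. AURKB, the kinase that corrects faulty spindle attachments, measured 33.3, 45.2, 56.2, 52.2 and 42.4 CPM in sh#1 tumors and 81.0, 75.2, 75.7, 79.0 and 74.5 in sh#2 tumors. The hairpins did not overlap, the log2 difference was -0.71 (SE 0.17, q = 0.0345), and shCtrl tumors measured 74.6, 84.4, 44.5, 69.4 and 59.7 CPM. The controls overlapped both hairpins, with 2 of the 5 sh#1 tumors below every control. For CENPF and CENPE the log2 difference was -0.65 (SE 0.15, q = 0.0473) and -0.64 (SE 0.17, q = 0.0722). Without sh#1 tumor 5, 0 members passed, and without sh#1 tumor 1 or 2, or sh#2 tumor 1, 2 or 3, 1 did. Lower calls over all genes tested went from 50 to 26 without sh#1 tumor 5. They went to 29 and 21 without sh#1 tumors 1 and 2, and to 19, 14 and 21 without sh#2 tumors 1, 2 and 3. The count of values below 0 ran from 38 to 40 with 1 tumor left out.

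**Figure D3:**
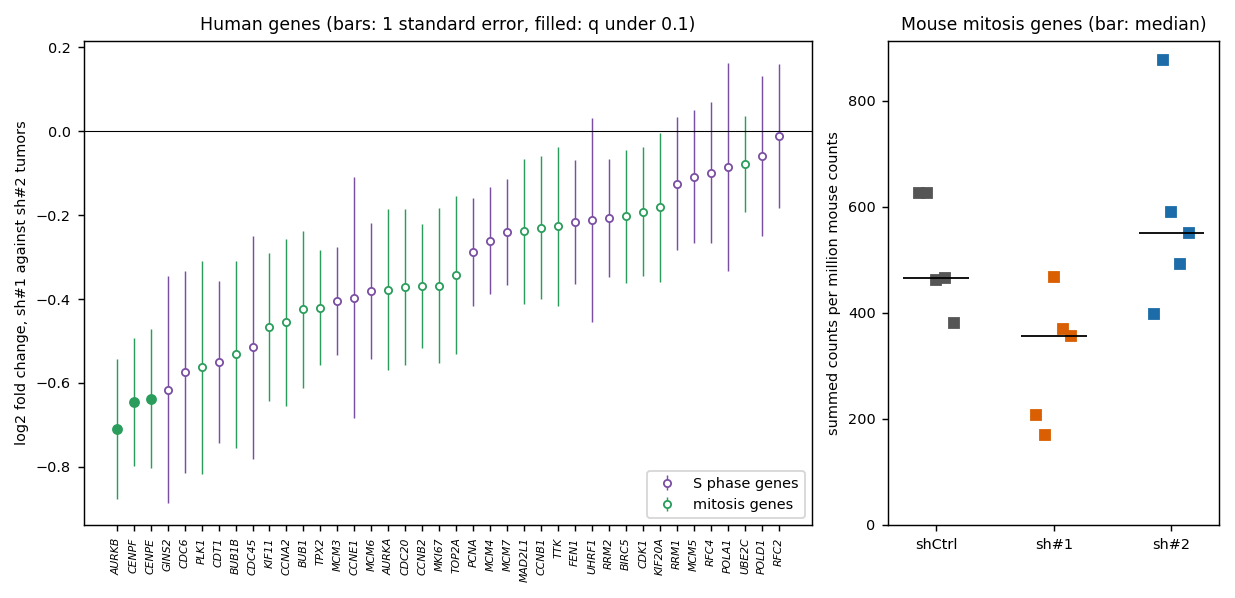
The left panel gives the log2 difference between sh#1 and sh#2 tumors for the 40 S phase and mitosis members tested, on the vertical axis, with bars of 1 SE and filled points past q under 0.1. All lie below 0, from AURKB (-0.71) to RFC2 (-0.01). The right panel gives the summed CPM of mouse mitosis genes, relative to all mouse counts, in each tumor, with bars at the group medians.

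Class levels per tumor are means over the same members, so they are not a separate observation. On these levels sh#1 tumors reached lower than sh#2 tumors, but the 2 hairpins overlapped in both classes. For mitosis members, sh#1 tumors 3 and 4 lay above sh#2 tumor 5. The mean log2 CPM of mitosis members was 5.997, 6.501, 6.86, 6.69 and 6.37 in sh#1 tumors and 6.88, 7.10, 6.91, 6.98 and 6.64 in sh#2 tumors. In shCtrl tumors it was 6.97, 6.94, 6.48, 6.74 and 6.63, so that the controls overlapped both hairpins, and 2 of the 5 sh#1 tumors lay below every control. For S phase members the ranges were 5.59 to 6.13 in sh#1, 6.10 to 6.40 in sh#2 and 5.88 to 6.36 in shCtrl tumors. The lowest level of both classes was in sh#1 tumor 1, the library with the fewest human counts and the largest mouse share. Without it 39 of 40 members stayed below 0, with medians of -0.18 for S phase and -0.31 for mitosis members.

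**Figure D4:**
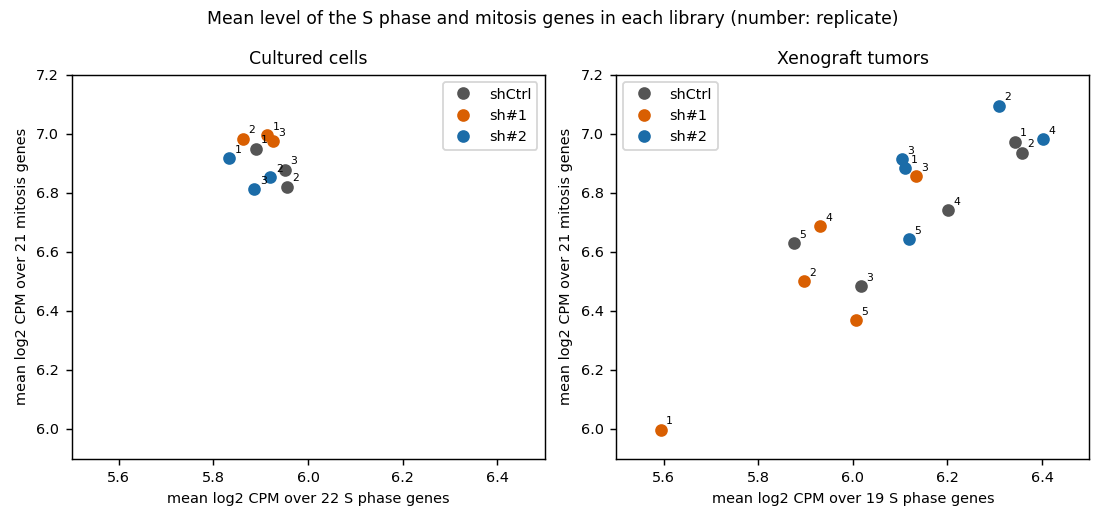
Mean log2 CPM of the S phase members, on the horizontal axis, and of the mitosis members, on the vertical axis, with 1 point per library and its replicate number, for cultured cells on the left and tumors on the right. The cultured groups lie close together, and the sh#1 tumors reach lower than the sh#2 tumors on both axes, with sh#1 tumor 1 lowest.

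Most other genes of the pathways lay on the same side. Of 50 further mitosis genes tested, 46 were below 0 in sh#1 against sh#2 tumors (median -0.34), and KNL1, a scaffold of the kinetochore (-0.71), and DLGAP5, a spindle protein (-0.59), passed. Of 37 further replication genes 32 were below 0 (median -0.18) and 0 passed. At an unadjusted p under 0.05, 1 was higher and 7 lower, beside 913 of all 9184 genes tested in either direction. The mouse counterparts of the members, 45 of which were listed, report on host cells. Mitosis genes summed to 170 to 468 CPM, relative to all mouse counts, in sh#1 tumors (median 356), 397 to 878 in sh#2 tumors (median 551) and 381 to 626 in shCtrl tumors (median 466.5). These sums rest on 35 to 162 mouse counts per tumor, how human and mouse reads were separated is not given in the sources used here, and their part in the human values was not tested. Of the mouse marker lists, those of stroma summed to 1680 to 12588 such CPM in sh#1 tumors, 5394 to 20213 in sh#2 tumors and 6959 to 18099 in shCtrl tumors. Those of leukocytes summed to 1055 to 2787, 1805 to 5026 and 1484 to 4963 in the same order. Those of endothelium summed to 92.0 to 284, 198 to 371 and 176 to 241. All of these markers were detected in every tumor, and their part in the member values was not tested.

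Whether the KD effect itself differed between tumors and cultured cells was tested in 1 fit over both tables, as the tumor effect minus the cultured effect. Of the 43 members tested, 1 was higher and 6 lower (16.3%, beside 7.99% of all genes tested at q under 0.05, 4.18% higher and 3.82% lower), all of them S phase or G1 control genes. CDKN1A differed by -1.28 (SE 0.22, q = 0.000128) and RRM2 by -1.10 (SE 0.18, q = 6.83e-05), both higher in cultured KD and with tumor values that did not pass the test. RRM1 differed by -0.58 (SE 0.17, q = 0.0286) and CDT1 by -0.81 (SE 0.25, q = 0.0403), also with a rise in culture and tumor values, -0.19 and -0.24, that did not pass. PCNA differed by 0.56 (SE 0.18, q = 0.0456), being lower in cultured KD and not past the threshold in tumors. MCM7 (-0.51, SE 0.16, q = 0.0342) and CCND1 (-0.63, SE 0.20, q = 0.0437) were the reverse case, with the lower KD level in tumors.

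Among 20 further G1 and S entry genes, E2F3 (0.71), CDC25A (1.46) and CKS1B (-0.64) also differed, and ORC1 (-1.29) and GINS1 (1.06) did among further replication genes. Of 50 further mitosis genes LMNB1 (0.88), a lamin of the nuclear envelope, did. RRM2 and CDKN1A kept their calls under all 27 alternatives, MCM7 and RRM1 under 20, CDT1 under 14, PCNA under 12 and CCND1 under 10. The 6 lower members became 2 without cultured shCtrl 1, 2 or 3, and 3 and 2 without tumor shCtrl 1 and 2. Lower calls over all genes tested went from 317 to 162, 203 and 161, and to 236 and 280, in the same order. Cultured libraries and tumors also differed in extraction, sequencer, aligner and depth, which cannot be told apart from growth in a host.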

How the data were processed

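RNA was measured in 9 cultured libraries and 15 xenograft tumors of UM-UC-3 cells. The authors deposited raw counts per gene, without normalization, in 1 table of cultured cells and in separate human and mouse tables of the tumors. Cultured reads (single end) were trimmed in CLC Genomics Workbench and mapped to hg38 with RaNAseq, and tumor reads were trimmed with Trim Galore and mapped to hg38 with HISAT2. The counting tool, the annotation, the use of strand and molecular identifiers, and the separation of human from mouse reads are not given in the sources used here. Every count column was matched to a label by name. No values were given for 13 gene rows of cultured cells, which are not analysed here, and none was a member.

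Counts were tested with edgeR 4.0.16 (R 4.3.3), with TMM scaling, the default low-count filter and the robust quasi-likelihood test, and q values are Benjamini-Hochberg values over all genes tested, which were 9859 in cultured cells, 9184 in tumors and 8307 in the joint fit. KD pooled both hairpins in a fit of 2 groups, and single hairpins came from a fit of 3 groups. Calls used q under 0.05 in cultured cells and for the difference between systems, and q under 0.1 in tumors. Levels are TMM-normalized CPM, and class levels use log2 CPM with a prior count of 2. The precision follows the depth of 2273182 to 2777019 counts in cultured libraries and 414849 to 1248977 human counts in tumors. The fits were tested on simulated data.

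Values were given in full for MKI67, PCNA, CDKN1A, CDKN1B, CCND1 and, in each system, the 4 S phase and 4 mitosis members with the largest change in KD among those past the threshold, or past it with a hairpin where fewer passed, which made 16 genes. UHRF1, CDC20, CCNE2 and AURKB were given in full after their values were seen. The members and all gene lists were chosen with earlier results of these data known. Alternatives were DESeq2 1.42.0, upper quartile scaling, no filter, at least 10 counts in every library, a replicate block, other sets of groups in the fit, the mouse to human ratio as a covariate, and leaving out each library. Promoters came from a RefSeq table on GRCh38.p14, with stretches kept clear of every GENCODE exon. Figures were drawn with matplotlib 3.10.9.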

Additional observations from a re-analysis of the deposited data

Results flagged for a closer look

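Among 54 groups of 5 tumors tested (the 16 genes named by the rule and the mean levels of the S phase and mitosis members), 6 held 1 tumor far from the others. Chance alone would flag about 1 in 20 groups of normally distributed values. The groups share the same tumors and are not independent, so 6 of 54 cannot be read as more than that rate. In sh#1 tumor 1, the library with the fewest human counts and the largest mouse share, CCND1 measured 427 CPM where sh#1 tumors 2 to 5 measured 617 to 669, and CDT1 16.6 against 35.4 to 41.8. CENPE measured 174 CPM in sh#1 tumor 3 against 88.2 to 104 in the others. CDKN1A measured 32.7 CPM in sh#2 tumor 1 against 49.8 to 55.4. In sh#2 tumor 4, CDT1 measured 75.8 CPM against 42.0 to 51.7 and CDC45 37.4 against 22.9 to 27.0. The call of CCND1 with sh#1 held without sh#1 tumor 1.

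The effect of CDH11 KD differed between tumors and cultured cells, by the test of the difference itself, in 7 members. As tumor minus cultured log2 fold change, the values were -0.51 for MCM7, -0.81 for CDT1, 0.56 for PCNA, -0.58 for RRM1, -1.10 for RRM2, -1.28 for CDKN1A and -0.63 for CCND1. Only RRM2 and CDKN1A passed under each of the 27 alternatives.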

How the results depend on the processing

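No value of a called member changed sign under any alternative. With 1 library left out, higher and lower members in cultured cells ran from 3 to 9 and 2 to 4 in KD, 7 to 10 and 3 to 4 with sh#1, 8 to 13 and 8 to 10 with sh#2, and 8 to 11 and 2 to 7 between the hairpins. In tumors they ran from 0 to 0 and 0 to 4 in KD, 0 to 0 and 2 to 5 with sh#1, 0 to 2 and 0 to 3 with sh#2, and 0 to 0 and 0 to 4 between the hairpins, and values below 0 from 38 to 40. For the difference between systems they ran from 0 to 1 and 2 to 7. In cultured KD the 3 lower members became 5 with upper quartile scaling and 9 when KD was averaged in the fit of 3 groups. DESeq2 gave 6 rather than 10 higher with cultured sh#1, 8 rather than 13 with cultured sh#2, and 2 rather than 6 lower in sh#1 than in sh#2. In tumors the 2 lower in KD became 0 with the mouse to human ratio as a covariate. The 2 higher with sh#2 became 1 with DESeq2, upper quartile scaling, the replicate block, only the 2 groups compared, and the covariate, and 2 rather than 0 were lower without a filter. In cultured KD the replicate block gave 6 higher and 2 lower members, without CDT1, TYMS, UBE2C and PLK1. With the replicate block the 3 lower members between tumor hairpins became 1, and those for the difference between systems became 0 higher and 2 lower. Deviations of same-numbered samples from their group means had correlations of -0.01 to 0.06 in cultured cells (median 0.02, beside -0.01 for other pairs). In tumors they had -0.10 to 0.13 (median -0.01, beside 0.01). Correlations this weak over few samples cannot decide whether the numbers pair the samples. The cause of these shifts was not tested. The signs of the 40 members between tumor hairpins became 39 of 40 below 0 with upper quartile scaling, 42 of 43 without a filter and 43 of 43 with DESeq2. Of all fold changes of called members, 725 kept and 169 lost their call with 1 library left out, and 430 kept and 45 lost it under the other alternatives. Over all genes, 899 higher and 820 lower in cultured KD ranged from 458 to 1630 and from 424 to 1661 over the alternatives, and 64 higher and 75 lower in tumor KD from 21 to 197 and from 27 to 202. The tumor libraries were less deep than the cultured ones.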
